A study of Homo sapiens with 12 samples.

Results

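AKT1, HK2, PFKM and PGAM1, the kinase AKT1 and 3 enzymes of glycolysis, were followed in SH-SY5Y cells that carried 1 of 4 tau constructs. They are 4 of the 1676 genes of the authors' deposited table and were taken by their symbols. They were chosen by their values in these same libraries: AKT1 and PFKM share the lowest adjusted p of that table, and PFKM, PGAM1 and HK2 were the glycolytic genes singled out for being higher with Tau-S199E than with Tau-WT. Their levels, their differences from Tau-WT with either single substitution and their K174Q by S199E interaction are therefore given as descriptions, with no test.

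SH-SY5Y is an established human neuroblastoma line derived from a metastatic bone tumor and is widely used as a model of neurons. Cells were transfected with tau, the microtubule-binding protein encoded by MAPT, and RNA was harvested 24 h later, of which 400 ng per library went into sequencing of transcript 3′ ends. Tau-K174Q-S199E carried both substitutions, Tau-K174Q and Tau-S199E carried 1 each, and Tau-WT, the study's reference, carried none, with 3 libraries per construct. All cells, the Tau-WT ones included, were transfected with tau, and no untransfected sample is used here. Glutamine in place of lysine mimics an acetylated lysine, and glutamate in place of serine mimics a phosphorylated serine.

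AKT1 is a serine/threonine kinase that is recruited to the plasma membrane and activated when phosphatidylinositol 3-kinase (PI3K) is switched on by insulin or growth factors. Among its known actions are the promotion of glucose uptake and glycolysis and the inhibition of the tau kinases GSK3A and GSK3B. HK2, hexokinase 2, traps glucose in the cell by phosphorylation and can sit on the outer mitochondrial membrane, PFKM, the muscle-type phosphofructokinase, catalyses the committed step of glycolysis, and PGAM1, phosphoglycerate mutase 1, moves the phosphate group within phosphoglycerate further down the pathway. Neurons draw on glycolysis and on oxidation of its product pyruvate in mitochondria.

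Every value below is standardised: the authors gave each gene a mean of 0 and an SD of 1 over the 12 libraries, so that a value counts SDs of that gene above or below its own mean (SD units). Levels can therefore be compared between constructs for a gene but not between genes, the depth of the libraries is unknown, and fold changes come from the authors' deposited table alone. Libraries carry the numbers of their columns, which are not the replicate numbers of the labels. The labels do not say whether the 3 libraries of a construct were grown separately, and the spread that the p-values rest on may be technical. In bulk RNA, fewer cells that express a gene and less RNA per cell cannot be told apart.

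The SD over all genes of the table was 1.67 in Tau-S199E library 12, against 0.47 to 1.21 in the other libraries, so library 12 stood apart. A part of the results that rest on it, not all of them, is given without it as well. MAPT ranged from -0.59 to 2.54 with Tau-K174Q-S199E, from -0.57 to -0.49 with Tau-K174Q, from -1.44 to -0.15 with Tau-S199E and from 0.00 to 0.85 with Tau-WT, and a 3′ tag need not read a transfected construct, which leaves the transfection unchecked by MAPT. None of 16 noradrenergic neuroblastoma markers, the type of SH-SY5Y, is among the genes listed. The table holds genes under an adjusted p of 0.05 only, so their absence says nothing of the cell type. Of 14 mesenchymal neuroblastoma markers, 3 were in the table (CD44, S100A6 and SNAI2), and their mean ranged over libraries from -1.0 to 0.67 with Tau-K174Q-S199E, from 0.28 to 0.49 with Tau-K174Q, from 0.64 to 1.83 with Tau-S199E and from -1.32 to -0.76 with Tau-WT. These 3 markers were higher with Tau-S199E than with Tau-WT, as were the 4 genes and 886 of the 1676 genes in all. Their order of means was that of 640 genes (38.2%). With Tau-K174Q-S199E, CD44 was 0.10, S100A6 0.65 and SNAI2 1.19 SD units above Tau-WT. Levels at 0 cannot be read from standardised values, and the part of these markers in the results was not tested.

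The regulatory sequence at the 5′ ends is shown because the 4 genes lay on the same side of Tau-WT with every other construct. RefSeq (GRCh38.p14) lists 12 start windows for the 4 genes, each with 250 bases before and 50 after a transcript start: 7 for PFKM, 2 for AKT1, 2 for HK2 and 1 for PGAM1. The window nearest the gene's start in GENCODE 29 is shown for each gene, with the other HK2 window, which is the only 1 of the 12 with CACGTG. Capitals mark matches on either strand to 5 motifs. The GC box was searched as GGGCGG, which 45.0% of all 35116 RefSeq windows hold. The core of the hypoxia response element was searched as ACGTG, which 21.4% hold. The E-box CACGTG contains that core and is in 7.26% of windows. The TATA box was searched as TATAAA, found in 11.5%. The FOXO site was searched as TGTTTAC, found in 3.42%. The AKT1 window is chr14:104795699-104795998, minus strand. Those of HK2 are chr2:74833877-74834176 and chr2:74834920-74835219, that of PFKM is chr12:48105103-48105402 and that of PGAM1 is chr10:97427568-97427867, all plus strand.
AKT1: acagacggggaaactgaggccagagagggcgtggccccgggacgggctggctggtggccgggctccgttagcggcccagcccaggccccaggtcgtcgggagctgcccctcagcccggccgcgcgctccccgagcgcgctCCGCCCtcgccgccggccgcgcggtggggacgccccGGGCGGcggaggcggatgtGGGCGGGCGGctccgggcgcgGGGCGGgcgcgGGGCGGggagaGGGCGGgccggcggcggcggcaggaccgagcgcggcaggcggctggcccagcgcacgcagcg
HK2, the start nearest the gene's start: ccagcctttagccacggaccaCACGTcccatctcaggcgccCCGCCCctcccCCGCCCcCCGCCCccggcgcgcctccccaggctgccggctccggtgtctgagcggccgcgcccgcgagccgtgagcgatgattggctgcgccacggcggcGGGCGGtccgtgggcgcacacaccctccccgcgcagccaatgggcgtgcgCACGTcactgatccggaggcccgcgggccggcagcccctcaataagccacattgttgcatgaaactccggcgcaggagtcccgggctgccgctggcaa
HK2, the other start: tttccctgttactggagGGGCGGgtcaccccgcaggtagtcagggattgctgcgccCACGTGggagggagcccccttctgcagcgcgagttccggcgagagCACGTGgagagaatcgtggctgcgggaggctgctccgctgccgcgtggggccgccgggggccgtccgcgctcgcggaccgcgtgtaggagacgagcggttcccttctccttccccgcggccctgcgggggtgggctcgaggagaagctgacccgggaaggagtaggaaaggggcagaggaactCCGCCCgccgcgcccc
PFKM: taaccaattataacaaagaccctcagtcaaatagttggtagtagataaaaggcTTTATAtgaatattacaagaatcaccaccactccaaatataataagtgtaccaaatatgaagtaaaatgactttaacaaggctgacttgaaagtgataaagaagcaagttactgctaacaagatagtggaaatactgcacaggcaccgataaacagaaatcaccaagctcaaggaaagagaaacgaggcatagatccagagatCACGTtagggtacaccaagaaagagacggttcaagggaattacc
PGAM1: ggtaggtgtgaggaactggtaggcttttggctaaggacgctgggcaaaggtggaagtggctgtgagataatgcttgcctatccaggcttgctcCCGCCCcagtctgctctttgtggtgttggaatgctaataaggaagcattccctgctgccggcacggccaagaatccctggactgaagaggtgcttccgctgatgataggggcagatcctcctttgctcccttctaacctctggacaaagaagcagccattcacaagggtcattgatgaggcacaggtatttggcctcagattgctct

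The AKT1 window was 83.3% G and C and held GGGCGG at 7 positions, some of them overlapping. The HK2 window at the gene's start held GGGCGG at 4 and ACGTG at 2 positions, and the other HK2 window held CACGTG at 2. The PFKM window, with 37.0% G and C, held TATAAA and ACGTG once each and no GGGCGG, whereas the PGAM1 window held GGGCGG once, around a RefSeq start that lies 1658 bases downstream of the GENCODE start. TGTTTAC was in 0 of the 12 windows. None of the 5 motifs was in all 4 of the windows nearest a gene's start, and GGGCGG was in 3 of them. Over all 12 windows GGGCGG was in 9. These included PFKM windows not shown, further downstream, with 68.7% to 71.3% G and C, so each of the 4 genes had a window with it. These are matches of letters, and no binding was measured.

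AKT1 (ENSG00000142208, chromosome 14, 104769349 to 104795751, minus strand, GRCh38) was lowest with Tau-WT and highest with the 2 single substitutions. Its values were -0.07, -0.64 and 0.53 with Tau-K174Q-S199E in libraries 16, 17 and 18, and 0.59, 0.83 and 0.93 with Tau-K174Q in libraries 4, 5 and 6. They were 0.90, 0.68 and 0.58 with Tau-S199E in libraries 10, 11 and 12, and -2.00, -1.35 and -0.99 with Tau-WT in libraries 1, 2 and 3. AKT1 averaged -0.06 ± 0.58 in Tau-K174Q-S199E cells, 0.78 ± 0.18 in Tau-K174Q cells, 0.72 ± 0.16 in Tau-S199E cells and -1.45 ± 0.51 in Tau-WT cells (SD, n = 3 each). The libraries of Tau-K174Q and Tau-S199E overlapped each other, stood above all 3 of Tau-K174Q-S199E, and these in turn stood above all 3 of Tau-WT. Library 12, which stood apart over the table, was the lowest of the Tau-S199E libraries for AKT1. The authors' deposited table lists AKT1 at -3.44 on the log2 scale, with an adjusted p of 4.6e-07 that it shares with PFKM. Its header does not name the contrast, so the negative sign of this and the other deposited fold changes gives no direction between constructs.

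PFKM (ENSG00000152556, chromosome 12, 48105139 to 48146404, plus strand) differed from AKT1 in that Tau-S199E stood alone at the top. Its values were -0.77, -0.56 and 0.31 in Tau-K174Q-S199E libraries, 0.39, 0.34 and -0.17 in Tau-K174Q libraries, 0.80, 1.03 and 2.02 in Tau-S199E libraries, and -0.91, -1.17 and -1.31 in Tau-WT libraries, in order of library number. The mean was -0.34 ± 0.57 in Tau-K174Q-S199E cells, 0.19 ± 0.31 in Tau-K174Q cells, 1.28 ± 0.65 in Tau-S199E cells and -1.13 ± 0.20 in Tau-WT cells (SD, n = 3 each). All 3 Tau-S199E libraries exceeded every other library, all 3 Tau-WT libraries lay under every other library, and Tau-K174Q and Tau-K174Q-S199E overlapped between them. The log2 fold change of PFKM in the authors' deposited table was -3.37 and the adjusted p 4.6e-07.

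HK2 (ENSG00000159399, chromosome 2, 74833981 to 74893359, plus strand) followed the same order of means with wider spread. It measured -0.75, -0.32 and 0.72 in Tau-K174Q-S199E libraries, 0.23, -0.04 and 0.67 in Tau-K174Q libraries, 0.60, 1.16 and 1.38 in Tau-S199E libraries, and -2.06, -0.53 and -1.06 in Tau-WT libraries. HK2 averaged -0.12 ± 0.76 in Tau-K174Q-S199E cells, 0.29 ± 0.36 in Tau-K174Q cells, 1.05 ± 0.40 in Tau-S199E cells and -1.22 ± 0.78 in Tau-WT cells (SD, n = 3 each). Each construct overlapped its neighbour in the order of means, so that only Tau-S199E and Tau-K174Q were clear of Tau-WT. The authors' deposited table lists HK2 at -1.12 on the log2 scale, with an adjusted p of 0.0151, rank 885 of 1676 by that p.

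PGAM1 (ENSG00000171314, chromosome 10, 97426160 to 97433441, plus strand) was high with Tau-S199E, and its other 3 constructs lay closer together. It measured -0.86, 0.16 and -0.28 in Tau-K174Q-S199E libraries, 0.12, -0.42 and -0.26 in Tau-K174Q libraries, 0.77, 1.13 and 2.29 in Tau-S199E libraries, and -1.41, -0.54 and -0.71 in Tau-WT libraries. PGAM1 averaged -0.33 ± 0.51 in Tau-K174Q-S199E cells, -0.18 ± 0.28 in Tau-K174Q cells, 1.40 ± 0.79 in Tau-S199E cells and -0.89 ± 0.46 in Tau-WT cells (SD, n = 3 each). The Tau-S199E libraries exceeded all others, the Tau-K174Q libraries lay within the range of Tau-K174Q-S199E, and library 16 of Tau-K174Q-S199E fell within the range of Tau-WT. Its log2 fold change in the authors' deposited table was -0.97 and its adjusted p 0.00409, at rank 437. GENCODE 29 names 13 pseudogenes after PGAM1 and 1 after HK2, none of them in the table, so reads may have been split between these genes and their copies and their values are less certain.

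**Figure D1:**
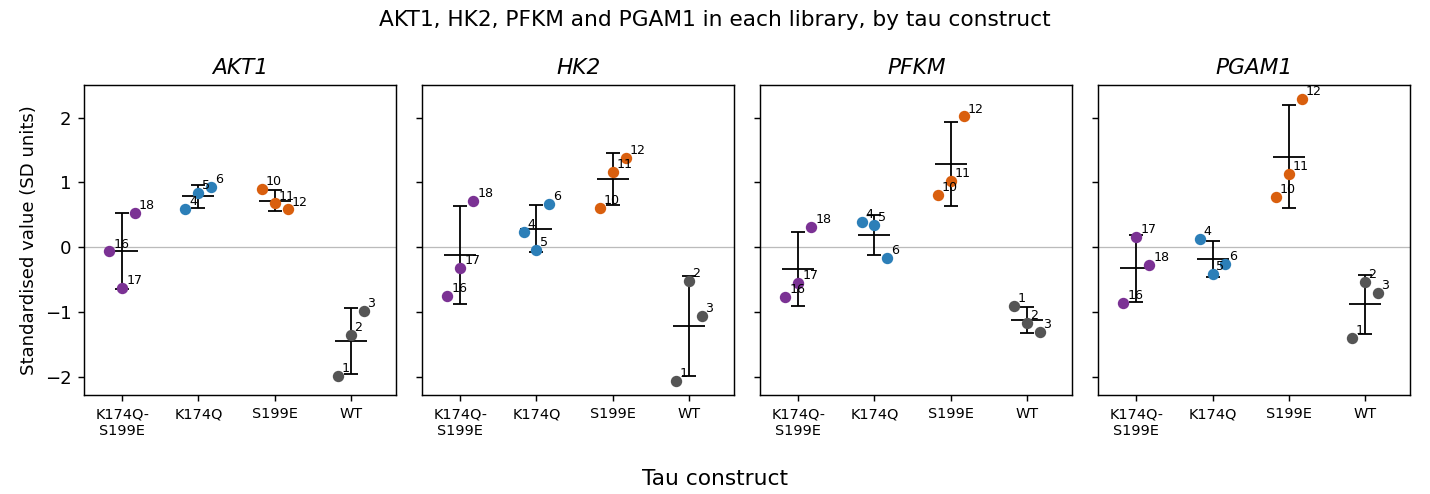
Standardised value (SD units, vertical axis) of AKT1, HK2, PFKM and PGAM1 in each of the 12 libraries by tau construct. Points are libraries with their numbers, and lines and bars are the mean and SD of 3 libraries. Tau-S199E is the highest construct for HK2, PFKM and PGAM1, with means from 1.05 to 1.40, while AKT1 averages 0.78 with Tau-K174Q and 0.72 with Tau-S199E.

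The order Tau-S199E, Tau-K174Q, Tau-K174Q-S199E, Tau-WT, from high to low, held for the means of HK2, PFKM and PGAM1 and was the order of 640 genes of the table (38.2%). The order of AKT1, with Tau-K174Q before Tau-S199E, was that of 172 genes (10.3%). The authors placed AKT1 in their cluster 3 and the 3 enzymes in cluster 4. PFKM followed the mean of cluster 4 most closely, with a root mean square difference of 0.17 SD units over the 12 libraries, against 0.44 for PGAM1 and 0.53 for HK2. HK2 lay 0.55 from the mean of cluster 3, close to its distance from its own. Between the 4 genes, the root mean square difference was smallest for PFKM and PGAM1 (0.47) and largest for AKT1 and PGAM1 (0.88).

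With either single substitution the 4 genes were higher than with Tau-WT. For Tau-S199E the differences from Tau-WT were 2.17 SD units for AKT1 (SE 0.33), 2.27 for HK2 (SE 0.50), 2.42 for PFKM (SE 0.38) and 2.28 for PGAM1 (SE 0.44). Without library 12 they were 2.23 for AKT1, 2.10 for HK2, 2.05 for PFKM and 1.84 for PGAM1. For Tau-K174Q they were 2.23 for AKT1, 1.51 for HK2, 1.32 for PFKM and 0.70 for PGAM1, with the same SEs, and that of PGAM1 was 0.44 without Tau-WT library 1. The libraries of the 4 genes did not overlap with those of Tau-WT in either comparison, and 94.2% of all genes of the table were apart in this way with Tau-S199E and 80.7% with Tau-K174Q. In the limma fit 90.0% of the table passed with Tau-S199E. These contrasts chose the genes and share the Tau-WT libraries, so nothing is read from those counts.

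The means of the doubly substituted construct lay under those of either single substitution for the 4 genes. Tau-K174Q-S199E minus Tau-S199E was -0.78 for AKT1 (SE 0.33), -1.17 for HK2 (SE 0.50), -1.62 for PFKM (SE 0.38) and -1.73 for PGAM1 (SE 0.44), where Tau-K174Q minus Tau-WT had been positive for all 4. Tau-K174Q-S199E minus Tau-K174Q was -0.84 for AKT1, -0.41 for HK2, -0.53 for PFKM and -0.14 for PGAM1, where Tau-S199E minus Tau-WT had been positive. Libraries of Tau-K174Q-S199E were apart from those of Tau-S199E for AKT1, PFKM and PGAM1, as for 43.4% of the table, and from those of Tau-K174Q for AKT1, as for 11.2%. The differences from Tau-K174Q rested on single libraries. With 1 library left out, that of HK2 ranged from -0.82 (without library 18) to -0.088 (without library 16), and was -0.21 without library 6. That of PFKM ranged from -0.85 (without library 18) to -0.31 (without library 16). That of PGAM1 turned to 0.12 without Tau-K174Q-S199E library 16 and to 0.0093 without Tau-K174Q library 4. Without library 17, the AKT1 difference was -0.55 from Tau-K174Q and -0.49 from Tau-S199E. K174Q thus went with higher values on wild-type tau and with lower values on tau that already carried S199E. Nearly the whole table showed such a reversal, so it was not particular to the 4 genes. The deposited fold changes had the sign of Tau-K174Q-S199E minus Tau-S199E in 1672 of 1676 genes and of Tau-K174Q-S199E minus Tau-K174Q in 1613. They had the sign opposite to Tau-K174Q minus Tau-WT in 1675. The interaction, (Tau-K174Q-S199E minus Tau-S199E) minus (Tau-K174Q minus Tau-WT), was -3.01 for AKT1 (SE 0.47), -2.67 for HK2 (SE 0.70), -2.94 for PFKM (SE 0.54) and -2.43 for PGAM1 (SE 0.63). Fold changes of the authors' deposited table have the sign of this contrast in 1676 of 1676 genes, and the sign opposite to Tau-S199E minus Tau-WT in 1676 as well.

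The size of the response to the other constructs relative to that of Tau-S199E does not depend on how a gene was scaled. The difference of Tau-K174Q from Tau-WT was 103% of that of Tau-S199E for AKT1, 66.4% for HK2, 54.6% for PFKM and 30.7% for PGAM1, against a median of 65.7% over all genes of the table. Leaving out each of the 12 libraries in turn moved these shares between 99.6% and 107% for AKT1, 57.9% and 73.7% for HK2, 49.7% and 64.5% for PFKM and 21.8% and 38.2% for PGAM1. The share was lower than that of PGAM1 in 5.07% of genes and lower than that of AKT1 in 85.9%. For Tau-K174Q-S199E the shares were 64.1% for AKT1, 48.6% for HK2, 32.8% for PFKM and 24.4% for PGAM1, against a median of 31.7%. These shares moved more with a library left out, between 50.5% and 77.5% for AKT1, 30.1% and 62.6% for HK2, 19.3% and 41.7% for PFKM and 13.7% and 36.2% for PGAM1. The ranges of neighbouring genes overlapped for Tau-K174Q-S199E, and those of HK2 and PFKM overlapped for Tau-K174Q as well. The differences between genes were not tested. The denominator, Tau-S199E minus Tau-WT, is the contrast by which HK2, PFKM and PGAM1 were singled out, which tends to lower their shares. The shares and their places among all genes are therefore a description.

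**Figure D2:**
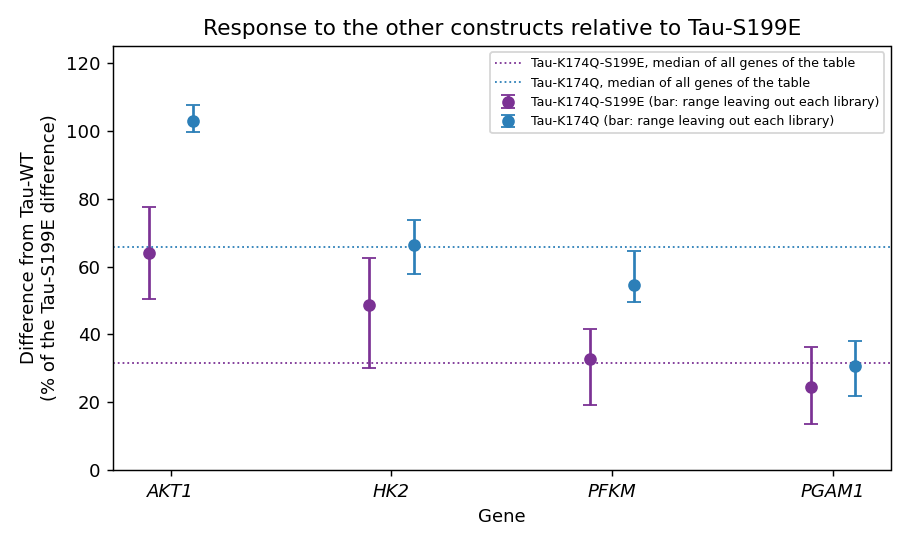
Difference from Tau-WT with Tau-K174Q-S199E and with Tau-K174Q, as a percentage of what Tau-S199E showed (vertical axis), for each gene. Points are values from all 12 libraries, bars the range when each library is left out, and dotted lines the medians of all 1676 genes. For Tau-K174Q the share declines from 103% for AKT1 to 30.7% for PGAM1, and the bars of HK2 and PFKM overlap.

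The contrasts of Tau-K174Q-S199E with Tau-WT and of Tau-K174Q with Tau-S199E are orthogonal to the interaction and were tested in the limma fit of all 1676 genes. They still share libraries with the contrasts that put the genes forward, so the tests are not independent of that choice. HK2, PFKM and PGAM1 were singled out for being higher with Tau-S199E than with Tau-WT. This favours a low Tau-WT mean and a high Tau-S199E mean. It tends to raise the first difference and to make the second more negative. The contrast behind the deposited p of AKT1 and PFKM is not known. The doubly substituted construct gave higher means than Tau-WT for the 4 genes, but none of the differences passed. AKT1 averaged -0.06 with Tau-K174Q-S199E and -1.45 with Tau-WT, a difference of 1.39 SD units (95% interval 0.62 to 2.15, limma adjusted p = 0.533). This interval holds single-gene coverage only and is not adjusted over the table, whereas the p is. The differences were 1.10 for HK2 (-0.04 to 2.25, limma adjusted p = 0.533), 0.79 for PFKM (-0.09 to 1.68, limma adjusted p = 0.533) and 0.56 for PGAM1 (-0.47 to 1.58, limma adjusted p = 0.544). With 1 library left out, the difference ranged from 0.68 to 1.45 for HK2, with 0.68 reached without library 18 or library 1. It ranged from 0.47 (without library 18) to 1.01 for PFKM and from 0.30 (without library 1) to 0.83 for PGAM1, which was at 0.31 without library 17. Libraries of the 2 constructs were apart for AKT1 and PFKM, for which the exact permutation p was 0.1, the smallest that 3 libraries against 3 can give, and overlapped for HK2 (exact permutation p = 0.2) and PGAM1 (exact permutation p = 0.3). Of all genes, 11.6% were apart. In the table as a whole, the share of genes that passed was 0%, with 127 genes at an unadjusted p under 0.05 and 0 called with limma's moderated variance.

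Between the single substitutions the differences ran from near 0 for AKT1 to lower means with Tau-K174Q for the 3 enzymes, and none passed. AKT1 averaged 0.78 in Tau-K174Q cells and 0.72 in Tau-S199E cells, a difference of 0.06 SD units (95% interval -0.70 to 0.83, limma adjusted p = 0.919). Its sign was not stable, being -0.0092 without Tau-K174Q library 6 and -0.0043 without Tau-S199E library 12. HK2 differed by -0.76 (-1.90 to 0.38, limma adjusted p = 0.41), PFKM by -1.10 (-1.98 to -0.21, limma adjusted p = 0.26) and PGAM1 by -1.58 (-2.60 to -0.56, limma adjusted p = 0.236). Without library 12 the difference was -0.73 for PFKM and -1.14 for PGAM1. The libraries of PFKM and PGAM1 were apart (exact permutation p = 0.1), as were those of 36.2% of all genes. In this contrast 0.0597% of the table passed, which is 1 gene, with 269 genes at an unadjusted p under 0.05. The intervals of PFKM and PGAM1 hold single-gene coverage only and are not adjusted over the table.

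**Figure D3:**
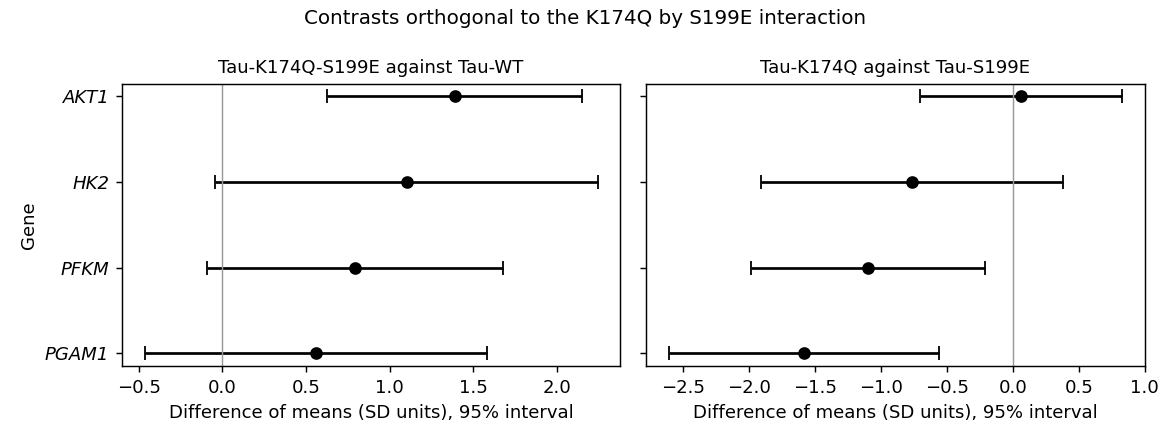
Difference of construct means (SD units, horizontal axis) for each gene, with Tau-K174Q-S199E against Tau-WT on the left and Tau-K174Q against Tau-S199E on the right. Points are differences and bars 95% intervals from the fit of 12 libraries. On the left the 4 differences lie between 0.56 and 1.39, and on the right they run from 0.06 for AKT1 to -1.58 for PGAM1.

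With Tau-S199E, the other glycolytic enzymes of the table lay on the opposite side of Tau-WT from HK2, PFKM and PGAM1. HK2, PFKM and PGAM1 were singled out for being higher, so this split follows from that choice and is no finding. Of 26 listed enzymes 6 were in the table, of which HK2, PFKM and PGAM1 were higher with Tau-S199E than with Tau-WT and GPI, ALDOA and PFKL were lower. In the limma fit of Tau-S199E against Tau-WT, 2 of the other 3 passed as lower, where 48.3% of the table passed as higher and 41.8% as lower. With so much of the table called in this contrast, its counts are a description. The same holds for the adjusted p-values and calls of single listed genes in this contrast, here and below. The table holds only genes that passed by the deposited adjusted p. Their deposited fold changes run opposite in sign to this contrast in every gene. The listed genes may thus have been preselected for this difference, and these p-values do not test it independently.

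GPI, glucose-6-phosphate isomerase, which acts between hexokinase and phosphofructokinase, averaged -1.28 ± 0.65 with Tau-S199E and 0.83 ± 0.62 with Tau-WT (SD, n = 3 each), a fall of 2.12 SD units (SE 0.53, limma adjusted p = 0.012). ALDOA, the aldolase that splits the product of phosphofructokinase, averaged -1.15 ± 0.60 with Tau-S199E and 0.52 ± 0.90 with Tau-WT and differed by -1.66 (SE 0.66, limma adjusted p = 0.0422), a call that was lost without library 10 (adjusted p = 0.106), library 12 (adjusted p = 0.111), library 2 (adjusted p = 0.103) or library 3 (adjusted p = 0.125). PFKL, the liver-type phosphofructokinase, was -0.78 ± 0.88 with Tau-S199E and 0.67 ± 0.61 with Tau-WT and did not pass (difference -1.45, SE 0.69, limma adjusted p = 0.0725). Without library 12 the difference was -1.77 for GPI and -0.94 for PFKL. The muscle and liver forms of phosphofructokinase thus lay on opposite sides of Tau-WT: PFKM averaged 1.28 with Tau-S199E and 0.19 with Tau-K174Q, both above its Tau-WT mean, and PFKL -0.78 with Tau-S199E and -0.54 with Tau-K174Q, both under its own. With Tau-K174Q-S199E, PFKM averaged -0.34, above its Tau-WT mean of -1.13, and PFKL averaged 0.65, close to its Tau-WT mean of 0.67. PFKM was among the genes singled out for being higher with Tau-S199E, so the opposite sides with that construct reflect the choice. The sides with Tau-K174Q add no separate support. Deposited fold changes had the sign opposite to Tau-S199E minus Tau-WT in 1676 of 1676 genes. They had the sign opposite to Tau-K174Q minus Tau-WT in 1675. The difference between PFKM and PFKL was not tested, since each is scaled to its own SD.

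Glucose uptake and lactate genes were also divided. The table held 4 of 17 listed genes, and with Tau-S199E 2 passed as higher and 2 as lower, against 48.3% and 41.8% of the table. SLC2A1, the glucose transporter GLUT1, averaged 0.85 ± 0.70 with Tau-S199E and -0.99 ± 0.37 with Tau-WT (difference 1.84, SE 0.60, limma adjusted p = 0.0225), and LDHA, which turns pyruvate into lactate, 1.22 ± 1.19 with Tau-S199E and -0.94 ± 0.47 with Tau-WT (difference 2.15, SE 0.56, limma adjusted p = 0.0126). LDHA was at 2.58 in library 12 and at 0.51 and 0.55 in libraries 10 and 11, and its difference was 1.47 without library 12. The lactate exporter SLC16A3 fell by 2.20 (SE 0.49, limma adjusted p = 0.0102) and the transporter SLC2A8 by 2.03 (SE 0.62, limma adjusted p = 0.0191). The difference of SLC16A3 was -1.83 without library 12. Without library 12 the adjusted p was 0.077 for SLC2A1 and 0.0641 for SLC2A8, which leaves 2 of the 4 calls, and SLC2A1 also missed it without library 3 (adjusted p = 0.0619).

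**Figure D4:**
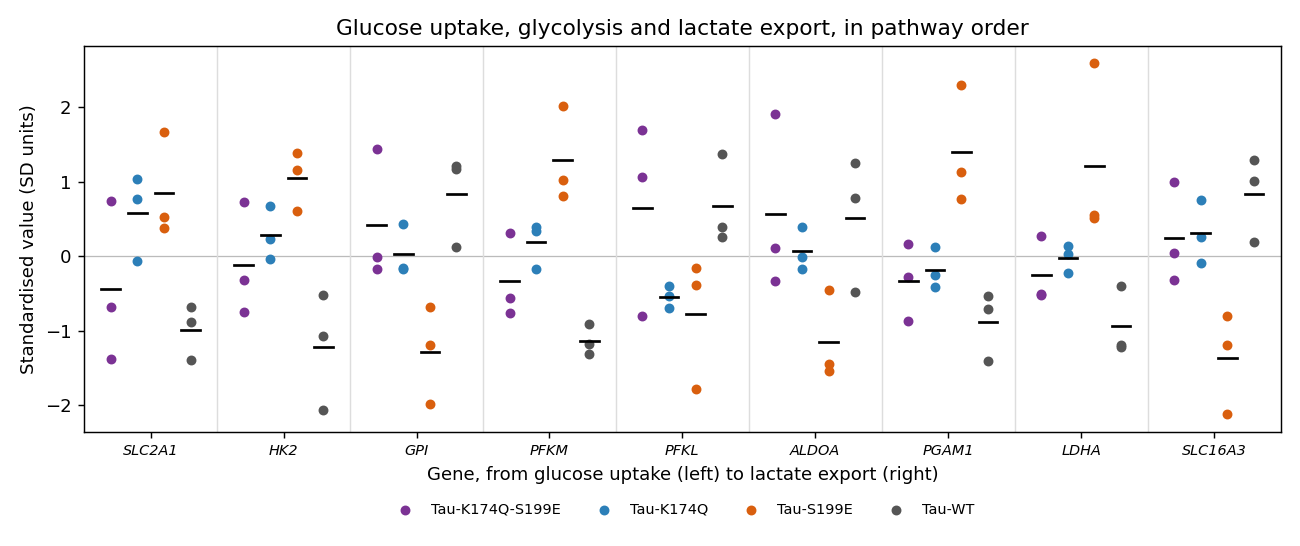
Standardised value (SD units, vertical axis) of 9 genes in pathway order, from the glucose transporter SLC2A1 to the lactate exporter SLC16A3, by construct. Points are libraries and black lines the means of 3. HK2, PFKM, PGAM1, LDHA and SLC2A1 are high with Tau-S199E, while GPI, PFKL, ALDOA and SLC16A3 are low.

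Downstream of pyruvate the listed genes lay on the side of HK2, PFKM and PGAM1. Of 14 genes of pyruvate entry into mitochondria 2 were in the table and both rose with Tau-S199E: PDHB, a subunit of pyruvate dehydrogenase, by 2.25 SD units (SE 0.49) and DLAT, its acetyltransferase, by 2.14 (SE 0.56). Of 20 genes of the citric acid cycle 6 were in the table and 6 rose, where 48.3% of the table passed as higher. Their median difference was 2.12, against 1.41 over all genes, a median over genes that lay on both sides of 0. SDHB (2.14, SE 0.52) and SDHC (2.25, SE 0.48) encode subunits of succinate dehydrogenase, and ACO1 (2.28, SE 0.44) cytosolic aconitase. Without library 12 these differences were 1.64 for SDHB, 1.79 for SDHC and 1.98 for ACO1, and that of PDHB was 1.83. FH, fumarase, also rose and lost its call without library 12 (adjusted p = 0.0559). TKT, transketolase, the only gene of 9 in the pentose phosphate list that was in the table, fell by 2.15 (SE 0.57, limma adjusted p = 0.0136).

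In branches that store or divert glucose, OGT, which attaches N-acetylglucosamine to proteins, rose with Tau-S199E by 2.03 SD units (SE 0.54), and the glycogen branching enzyme GBE1 by 1.57 (SE 0.52). UAP1 of hexosamine synthesis differed by 1.42 and did not pass (limma adjusted p = 0.0596). The call of GBE1 was lost without library 12 (adjusted p = 0.0808), library 1 (adjusted p = 0.0651) or library 3 (adjusted p = 0.0566), and UAP1 passed without library 11 (adjusted p = 0.0447). None of 11 genes of fructose bisphosphate control and gluconeogenesis was in the table.

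Around AKT1 the signalling list held 8 of 42 genes, AKT1 being 1 of them. Of the other 7, 3 passed as higher and 3 as lower in Tau-S199E against Tau-WT, where 48.3% of the table passed as higher and 41.8% as lower. PIK3R4, a regulatory subunit of the class III PI3K complex, rose by 2.21 SD units (SE 0.44, limma adjusted p = 0.00981) and RHEB, the GTPase that activates mTOR complex 1, by 2.05 (SE 0.53, limma adjusted p = 0.0126). RPS6KB2, an S6 kinase, fell by 2.08 (SE 0.58, limma adjusted p = 0.0149). Tau-K174Q placed RHEB 1.83 and AKT1 2.23 above Tau-WT and PIK3R4 1.07 above it. Without library 12, RPS6KB2 (adjusted p = 0.0521), EIF4EBP2 (adjusted p = 0.0735) and MLST8 (adjusted p = 0.128) missed the threshold.

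Of 18 listed AKT substrates 4 were in the table, 2 rising and 2 falling with Tau-S199E, where 48.3% of the table passed as higher and 41.8% as lower. GSK3A, the kinase that AKT inhibits and that phosphorylates tau, averaged -1.23 ± 0.82 with Tau-S199E and 0.95 ± 0.50 with Tau-WT (difference -2.18, SE 0.55, limma adjusted p = 0.012), opposite in direction to AKT1. Without library 12 the GSK3A difference was -1.72. The cell cycle inhibitor CDKN1B rose by 2.13 (SE 0.48, limma adjusted p = 0.0104). BAD, a promoter of cell death that AKT inactivates, fell by 1.88 (SE 0.64) and CASP9, the initiator caspase, rose by 1.65 (SE 0.57), and both missed the threshold without library 12 (adjusted p = 0.0869 for BAD and 0.0919 for CASP9), without library 1 (adjusted p = 0.0765 and 0.0671) and without library 3 (adjusted p = 0.0516 and 0.0569). CASP9 also missed it without library 2 (adjusted p = 0.057). Of 13 transcription regulators of glycolytic genes, ESRRA, an orphan nuclear receptor of energy metabolism, was in the table and rose by 1.86 (SE 0.58, limma adjusted p = 0.0196), a call that was lost without library 12 (adjusted p = 0.0663) or library 2 (adjusted p = 0.0616). No gene of the table passed in Tau-K174Q against Tau-WT (0%), with 870 at an unadjusted p under 0.05, and 1004 were called with the moderated variance.

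**Figure D5:**
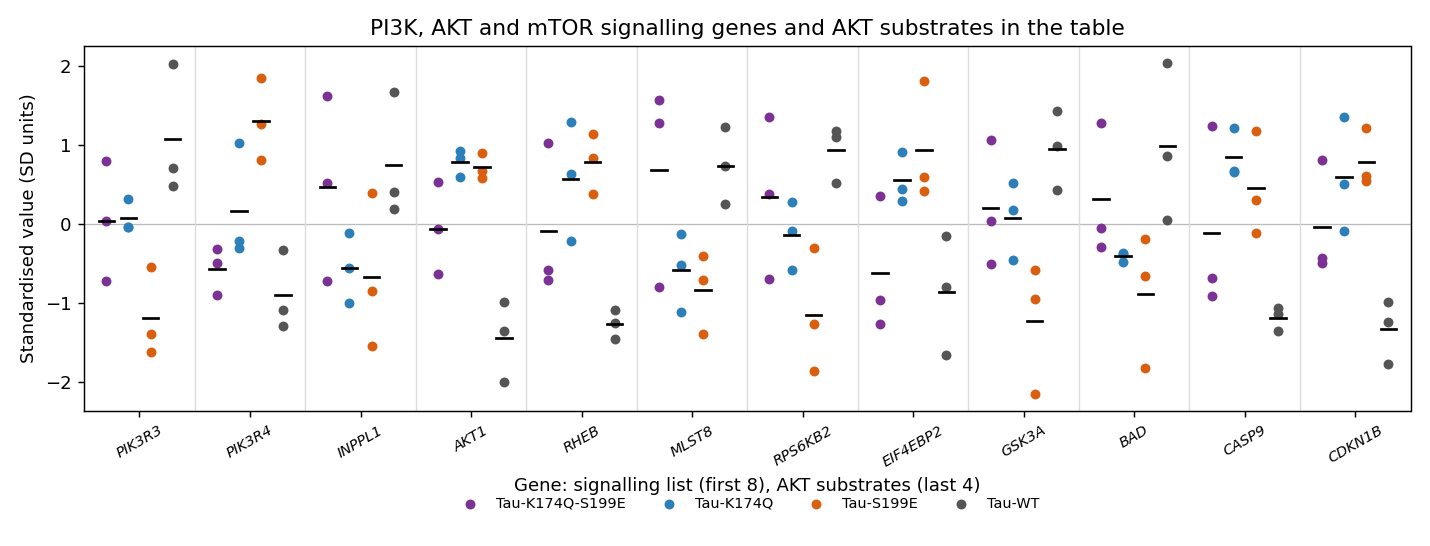
Standardised value (SD units, vertical axis) of the 8 signalling genes and 4 AKT substrates that are in the table, by construct. Points are libraries and black lines the means of 3. AKT1, RHEB and PIK3R4 are high with Tau-S199E and low with Tau-WT, and GSK3A, RPS6KB2 and PIK3R3 are the reverse.

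The genes whose values lay nearest to each of the 4 over the 12 libraries were found by the root mean square difference in SD units. Nearest to AKT1 were METTL17 (0.21), the mitochondrial ribosomal gene MRPL13 (0.36), GGH (0.37), the actin-binding profilin gene PFN1 (0.37) and SMIM26 (0.38), where the median over all genes was 0.98. Nearest to PFKM were the Integrator subunit gene INTS9 (0.13), UQCRFS1, the Rieske protein of respiratory complex III (0.13), the receptor phosphatase gene PTPRF (0.14), ODC1, ornithine decarboxylase (0.16), and GADD45B (0.17), against a median of 0.78. Nearest to PGAM1 were LRFN4 (0.12), the replication protein gene RPA3 (0.24), the proteasome subunit gene PSMB6 (0.26), SART1 (0.28) and CYC1, cytochrome c1 (0.28), against a median of 1.02. Nearest to HK2 were CDCA7 (0.33), ZNF281 (0.36), CUTC (0.37), the calcium pump gene ATP2A2 (0.38) and MBD6 (0.40), against a median of 0.90. None of the 20 is on the glycolysis or AKT lists. Of the 1676 genes, only 6 are listed glycolytic enzymes, 8 signalling genes and 4 AKT substrates. With lists this short, their absence says nothing about the 4 genes. Likeness over 12 libraries that fall into 4 constructs rests mainly on the construct means.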

How the data were processed

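Polyadenylated RNA of 12 SH-SY5Y libraries was sequenced with a 3′ mRNA kit, per the labels' protocols. STAR 2.5.3a, RSEM 1.2.31, DESeq2 and GRCh38 are named, without roles, in the submitters' processing notes. How the values were transformed, filtered and clustered, and the strand setting, is not stated there. The deposited library values are a score, standardised by the authors per gene to mean 0 and SD 1, as the values show, so no pseudocount, low-value filter or count model applies and depth is unknown. The deposited log2 fold change and the deposited adjusted p-value are the authors', per the file headers, which name no contrast. Their signs match the K174Q by S199E interaction and the reverse of Tau-S199E minus Tau-WT equally well, so the contrast is unknown.

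Groups come from the labels, and columns were matched to constructs by name. Values were fitted with limma 3.58.1 (R 4.3.3), 1 mean per construct over 12 libraries, with each gene's ordinary residual variance, two-sided tests and Benjamini-Hochberg adjustment over 1676 genes at 0.05. The fit was tested on simulated data. Standardising can disturb moderated variances, which were an alternative, as were the 6 libraries compared, exact permutation and leaving out each library. Named genes are the 4 genes, all listed glycolytic enzymes in the table, at most 4 genes of every other list by the smallest deposited adjusted p, and the 5 nearest genes with a symbol. EIF4EBP2, MLST8, PIK3R3, INPPL1 and MAPT fall outside that rule and were named after their values were seen. One listed gene is not reported here. The 4 genes and the lists were chosen with earlier results of these data known. Coordinates are from GENCODE 29 and promoter windows from RefSeq, which matched 4 of 4 genes.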

Additional observations from a re-analysis of the deposited data

Results flagged for a closer look

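The effect of K174Q differed between tau with and without S199E for the 4 genes, a reversal that nearly all genes of the table shared. The difference was -3.01 SD units for AKT1, -2.67 for HK2, -2.94 for PFKM and -2.43 for PGAM1, with Tau-K174Q-S199E minus Tau-S199E negative and Tau-K174Q minus Tau-WT positive for each. The sign held with each of the 12 libraries left out, from -3.30 to -2.72 for AKT1, -3.09 to -2.25 for HK2, -3.27 to -2.57 for PFKM and -2.74 to -1.98 for PGAM1. No p is given, because the genes were chosen by values of these libraries, and the signs of the deposited fold changes, whose contrast is not named, follow this difference throughout the table. With 3 libraries per construct, single libraries were not checked for lying apart by a gap rule.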

How the results depend on the processing

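Standardised values hide the depth and the fold size, and 3 libraries per construct leave wide intervals. No paired analysis was possible because the columns carry no replicate number of the labels. Of 644 alternatives computed, 581 kept the call, or a value within the spread. The 8 tested differences of the 4 genes stayed short of the threshold in all alternatives run. Among these, the exact permutation could not pass, since its smallest p is 0.1, yet its results are counted in the 581. The moderated variance and the fit of 6 libraries leave a difference unchanged. Values given without a test could therefore not move under these settings, yet they are counted as well. The limma adjusted p of the 8 differences ranged from 0.156 to 0.999 over libraries left out, and 1 of the 8 changed sign. AKT1 in Tau-K174Q against Tau-S199E (0.06) ranged from -0.0092 (without library 6) to 0.16 and was -0.0043 without library 12. Among the values given without a test, PGAM1 in Tau-K174Q-S199E against Tau-K174Q (-0.14) changed sign: it ranged from -0.39 to 0.12 (without library 16) and was 0.0093 without library 4. For these, the cause was not tested. In Tau-K174Q against Tau-WT, 0 genes were called, but 1004 with the moderated variance and 819 on the 6 libraries. In Tau-K174Q against Tau-S199E, 1 gene was called, 0 with the moderated variance, 0 on the 6 libraries and 0 to 1 with a library left out. Tau-K174Q-S199E against Tau-WT gave 0 to 2 with a library left out. Tau-S199E against Tau-WT gave 1509, and 833 to 1402 with a library left out, the lowest without library 12. In that contrast the calls ranged from 2 to 4 for glucose transport and lactate, 4 to 7 for PI3K, AKT and mTOR signalling, 2 to 4 for AKT substrates and 0 to 1 for the regulators. Among the single listed genes and these comparisons, 37 values fell short of the threshold under an alternative and 5 newly passed it. For the listed genes in Tau-S199E against Tau-WT, such calls are descriptions.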
